A study of Mus musculus with 18 samples.

Results

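Matrix metalloproteinases (MMPs) and their tissue inhibitors (TIMPs) were examined as a set of 10 genes, namely Mmp2, Mmp3, Mmp8, Mmp9, Mmp10, Mmp13, Mmp14, Timp1, Timp2 and Timp3. These genes were picked by symbol from the 36757 genes of the count table, and all 10 were present. RNA-seq was performed on colorectal samples of C57BL/6 mice in 3 models, each with 3 wild type (RNF138 fl/fl) and 3 RNF138-/- libraries. Chronic colitis was produced with repeated rounds of 2% dextran sulfate sodium (DSS) in drinking water, 7 days of DSS and then 14 days of plain water, in co-housed male and female mice, and colons were taken 4 weeks after the last DSS round. In all models the mice were 6 to 8 weeks old when treatment began. Colitis-associated cancer (CAC) was produced with a single injection of azoxymethane (AOM, 10 mg/kg), a carcinogen, followed by the same rounds of DSS, with the same interval before the end point per the study's methods. Organoids were grown in matrigel from cells digested out of tumor-bearing intestinal fragments of CAC mice. Per the study's methods, normal epithelium was first detached with EDTA, and no sorting by cell type is described. RNF138 is an E3 ubiquitin ligase, and the question was which transcripts differ when it is missing in each model. Nothing in the labels says whether libraries of a group came from separate animals or cultures, so p-values measure the spread between these libraries, which may be technical.

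MMPs are zinc-dependent enzymes that are made as inactive precursors, secreted or held at the cell surface, and activated by removal of a propeptide. Together they cut the components of the extracellular matrix and many growth factors and cytokines, and TIMPs bind to their active site and block them. In the colon they are known from ulcer repair, from neutrophils and activated fibroblasts of inflamed mucosa, and from the stroma of tumors.

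Depth ranged from 11514716 to 24390082 counts per library. Rnf138 itself was not lower in the libraries labelled RNF138-/-. It stood at 16 to 25.5 CPM (counts scaled to equal library size) in wild type and 18.1 to 19.5 CPM in RNF138-/- colitis libraries, at 21 to 28 against 39.6 to 45.3 CPM in CAC, and at 37.4 to 55.2 against 42.6 to 49.9 CPM in organoids. The labels were kept, and every direction given here is between libraries by label. The labelled tissue held its epithelial markers, with Epcam at 824 CPM or more in all 18 libraries, but others were lower in part of them. Cdx2, a transcription factor of intestinal epithelium, was at 43.1 to 234.8 CPM in wild type and 3.36 to 14.1 CPM in RNF138-/- CAC, and at 2.95 to 14.5 CPM in organoids. The 12 tissue libraries and the 3 organoid libraries labelled RNF138-/- expressed Y-linked genes, whereas the 3 wild type organoid libraries had Xist at 386 to 460.0 CPM and no count of Ddx3y, so that sex and genotype cannot be told apart in organoids.

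Mmp3, Mmp8, Mmp10 and Mmp13 lie within the MMP cluster on chromosome 9 (GRCm38/mm10), Mmp13 at chr9:7272514-7283331, Mmp3 at chr9:7445822-7455975, Mmp10 at chr9:7502352-7510240 and Mmp8 at chr9:7558456-7568485, all on the plus strand. Mmp2 lies at chr8:92827291-92853420, Mmp9 at chr2:164940780-164955850, Mmp14 at chr14:54431612-54445364, Timp1 at chrX:20870166-20874735, Timp2 on the minus strand at chr11:118301069-118355740 and Timp3 at chr10:86300372-86349506. Timp1 sits inside Syn1 and Timp2 overlaps Cep295nl, in both cases without shared exonic bases, whereas Timp3 shares 1733 exonic bases with Syn3 on the opposite strand. Of all 50-base windows of their transcripts, 8.39% of Mmp3 were also found elsewhere, in Mmp10 and Gm15244, and 8.37% of Mmp10 in Mmp3, so a small part of their reads cannot be assigned to one of both. The strand setting of the counting is not given in the sources used here, so reads from Timp3 and Syn3 in the shared bases are uncertain.

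Promoters are shown because Mmp3, Mmp10 and Mmp13 were called higher in the same comparisons, whereas Mmp8, their neighbour, and Timp1 are shown as genes with other patterns. The 120 bases before the RefSeq start site (GRCm38.p6) are printed 5′ to 3′, with matches to the AP-1 motif TGANTCA and to the TATA box TATAAA in capitals.
Mmp3 (chr9:7445702-7445821, plus strand): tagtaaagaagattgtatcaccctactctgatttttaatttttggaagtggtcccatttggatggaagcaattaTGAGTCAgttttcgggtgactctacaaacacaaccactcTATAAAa
Mmp10 (chr9:7502222-7502341, plus strand): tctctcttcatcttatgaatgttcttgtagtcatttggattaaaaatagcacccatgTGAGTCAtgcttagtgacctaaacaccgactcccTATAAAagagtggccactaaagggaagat
Mmp13 (chr9:7272394-7272513, plus strand): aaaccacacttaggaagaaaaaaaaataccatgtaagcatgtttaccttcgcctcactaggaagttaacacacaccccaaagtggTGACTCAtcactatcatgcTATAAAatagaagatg
Mmp8 (chr9:7558309-7558428, plus strand): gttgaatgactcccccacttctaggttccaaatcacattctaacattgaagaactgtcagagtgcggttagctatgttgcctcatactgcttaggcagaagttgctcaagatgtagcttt
Timp1 (chrX:20870046-20870165, plus strand): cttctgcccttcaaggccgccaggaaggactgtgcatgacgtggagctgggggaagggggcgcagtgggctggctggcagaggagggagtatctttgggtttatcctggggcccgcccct

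Entries were found for 8 of the 10 genes, and Mmp2 and Mmp9 are named only. Both strands of the 250 bases before each start were searched. Mmp3, Mmp10 and Mmp13 each held 1 AP-1 match, beginning at -46, -63 and -35 from the start, and 1 TATA box, beginning at -7, -29 and -16. No AP-1 or TATA box letters were found in these 250 bases of Mmp8, Mmp14, Timp1, Timp2 or Timp3, and the NF-kB motif was found in none of the 8. Over the same 250 bases of 32851 promoters, 6.75% held the AP-1 motif, 12.4% the TATA box and 3.9% the NF-kB motif. The 3 genes with both motifs are neighbours in 1 cluster, and a match of letters is no evidence that a factor binds there.

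Levels were first compared between the 10 genes, per kilobase of exon (RPKM). In wild type colitis Timp2 ranked first at 39.4 ± 2.75 RPKM (mean ± SD, n = 3), followed by Mmp2 at 21.9 ± 4.27 and Mmp14 at 19.9 ± 2.94, whose ranges overlapped. Mmp8 ranked last at 0.0165 ± 0.0143 RPKM, below Mmp9 at 0.109 ± 0.0369. Colitis libraries labelled RNF138-/- also had Timp2 first, at 47.7 ± 12.2 RPKM, with Mmp14 and Mmp2 next and overlapping. 

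In CAC the stromelysin Mmp10 ranked first by its mean in both genotypes, at 28.8 ± 14.1 RPKM in wild type and 80.7 ± 47.2 RPKM in libraries labelled RNF138-/- (n = 3 each). From Mmp10 down to Mmp3, each neighbour in the wild type order overlapped the next, so that only Mmp8, at 1.08 ± 0.244 RPKM, stood apart at the bottom. In organoids Timp1 ranked first by its mean, at 828 ± 311 RPKM in wild type and 976 ± 133 RPKM in libraries labelled RNF138-/-, and Mmp3 was next at 278 ± 92.3 and 779.6 ± 184 RPKM. The range of Mmp3 overlapped that of Mmp2 in both genotypes and that of Timp1 in RNF138-/-. Mmp8 remained the lowest in organoids, at 0.0462 ± 0.0319 and 1.30 ± 0.295 RPKM.

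**Figure D1:**
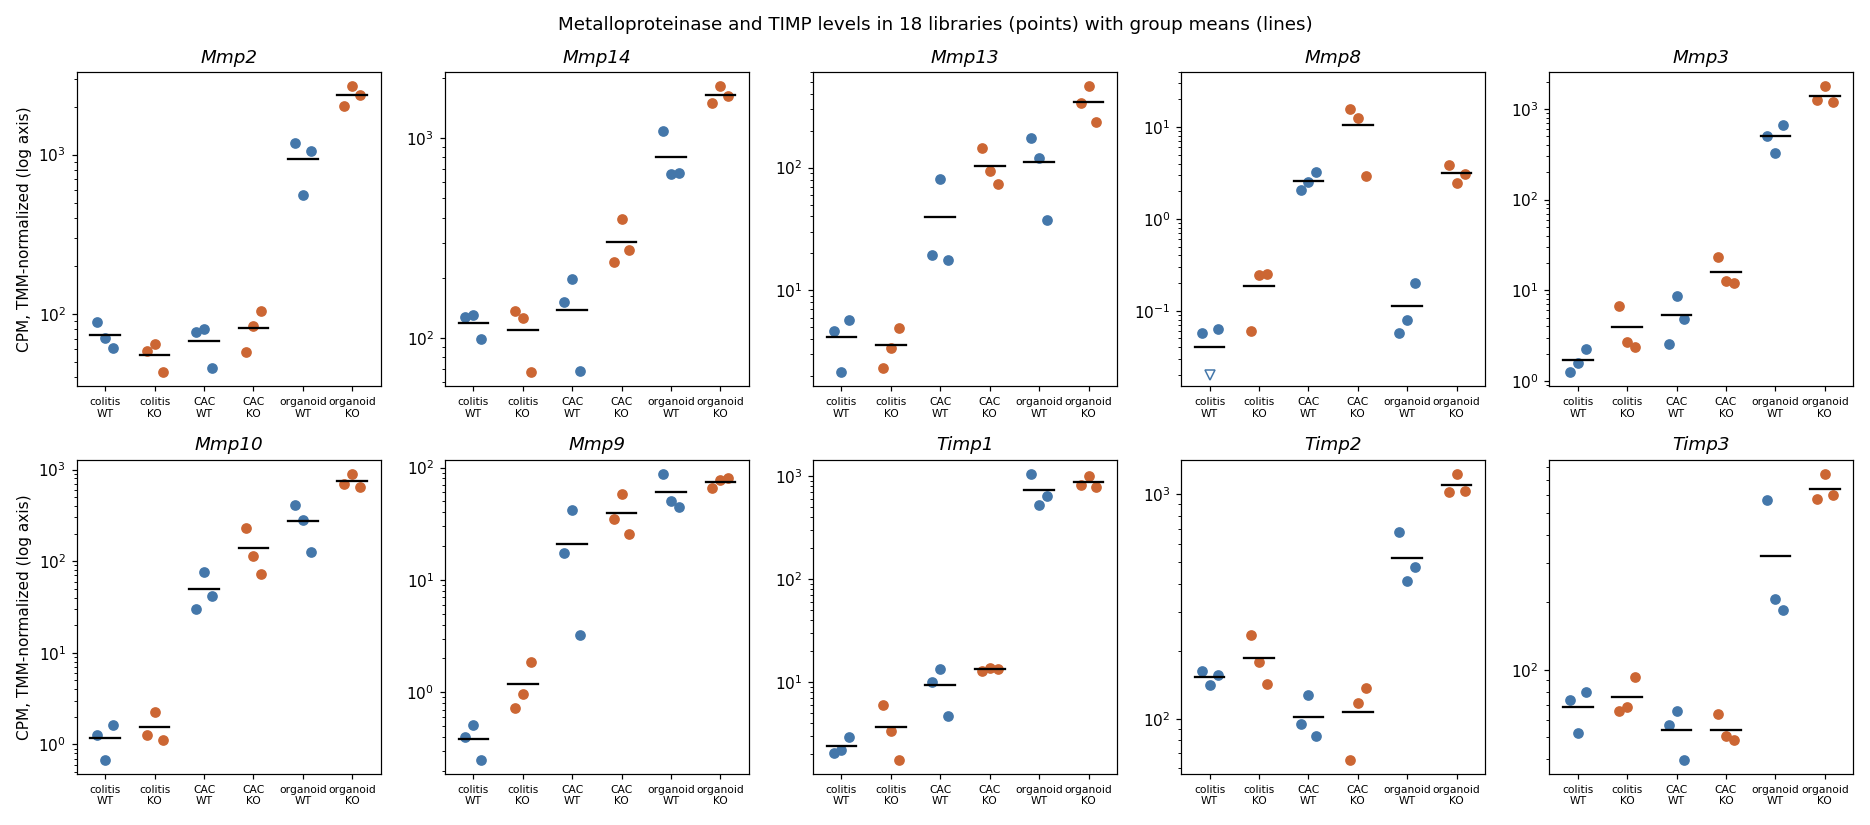
TMM-normalized CPM (log axes) of the 10 genes in 18 libraries, by model and genotype (WT, wild type; KO, labelled RNF138-/-); points are libraries, lines are group means, and the open triangle marks a wild type colitis library with no count of Mmp8. Mmp3, Timp1 and Mmp2 reached their highest levels in organoids, whereas Mmp8 was highest in CAC.

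CAC was compared with colitis within each genotype. Per the paper these were dissected colon tissues of both models, and the tumor content of the CAC libraries is not given. AOM treatment, tumor content and tissue sampling cannot be told apart in this comparison. Mmp10, Mmp9, Mmp13, Mmp8, Mmp3 and Timp1 were higher in CAC in both genotypes, with log2 fold changes between 1.68 and 5.82 in wild type and between 1.87 and 6.50 in libraries labelled RNF138-/-. Mmp14 was called higher in libraries labelled RNF138-/- and not in wild type, and Mmp2, Timp2 and Timp3 were not called in either genotype. In numbers, 6 of 10 genes were called higher in wild type and 7 of 10 in libraries labelled RNF138-/- where a call needs an adjusted p under 0.05 and at least 2-fold change, against 9.78% and 17.5% of the 19390 genes tested called higher. Mmp8, which was too low for a test among the colitis libraries, entered this test only through the other groups. The median log2 fold change was 1.83 over the 10 genes and 0.04 over all genes tested in wild type, and 1.95 and 0.04 in libraries labelled RNF138-/-. Neutrophil markers moved in the same direction, with 6 of 8 tested called higher in each genotype. Their summed level was 24.2 to 33.1 CPM in wild type colitis and 55.3 to 229 CPM in wild type CAC, and Ly6g made up most of the colitis sum, at 20.4 to 29.3 CPM. S100a8 was at 0 to 0.188 CPM in wild type colitis and 15.4 to 36.7 CPM in wild type CAC, and in wild type colitis S100a8, S100a9, Cxcr2, Ngp, Retnlg and Elane had 3 counts or fewer in every library. Squamous epithelium markers were also higher in CAC for 4 of 5 tested in each genotype, with 1 lower in RNF138-/- and median log2 fold changes of 5.13 in wild type and 3.96 in RNF138-/-. Fat markers were higher for 2 of 3 tested in wild type (median 3.91) and lower for 3 of 3 in RNF138-/- (median -6.68). In RNF138-/- libraries, markers of smooth muscle (6 of 6, median -5.89), B and plasma cells (5 of 5, median -3.64), fibroblasts (5 of 8, median -1.19) and intestinal epithelium (4 of 8, median -0.93) were lower in CAC. Over all genes, 3804 of 19390 were called lower there. The part of these cell types in the MMP differences was not tested. In bulk tissue, fewer cells of a type and less RNA per cell cannot be told apart.

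Organoids were compared with CAC tissue next, with the CAC libraries shared between both sets of comparisons. Among the genes higher in organoids, Mmp3 and Timp1 differed most, by log2 fold changes of 6.56 and 6.30 in wild type and 6.46 and 6.03 in libraries labelled RNF138-/-, and Mmp2 followed at 3.81 and 4.85. Mmp10, Mmp13, Mmp14, Timp2 and Timp3 were also higher in organoids of both genotypes, Mmp9 was called in wild type and not in RNF138-/-, and Mmp8 was lower in both, at -4.44 and -1.73. That gave 9 genes higher and 1 lower in wild type and 8 higher and 1 lower in libraries labelled RNF138-/-, where 44.3% and 44.4% of all genes tested were called in either direction. The medians were 2.52 and 2.90 over the 10 genes and -0.14 and -0.22 over all genes tested. Fibroblast markers were called higher in organoids for 5 of 8 in wild type, with 1 lower, and for 7 of 8 in libraries labelled RNF138-/-. Their summed level was 578 to 771 CPM in wild type CAC and 1024 to 2364 CPM in wild type organoids, while Pecam1, Cdh5 and the other endothelial markers were lower for 5 of 5 in each genotype. Neutrophil markers moved with Mmp8 and were lower in organoids for 6 of 8 tested in each genotype (medians -5.01 in wild type and -7.02 in RNF138-/-, with 1 higher in the latter). Markers of T cells and of B and plasma cells were lower for 5 of 5 in each genotype and those of macrophages for 6 of 7 and 5 of 7, whereas smooth muscle markers were lower for 5 of 6 in wild type and higher for 4 of 6 in RNF138-/-. Intestinal epithelium markers were lower for 4 of 8 and higher for 1 in wild type, and lower for 1 in RNF138-/- (medians -0.97 and -0.26). Fat markers were lower for 3 of 3 tested in wild type (median -6.37) and higher for 1 of 3 in RNF138-/- (median 0.37). The part of these cells in the differences was not tested. When scaled to the fibroblast markers, an alternative chosen after seeing the data, 8 of 10 genes were called in each genotype, against 59.7% of all genes tested in wild type and 92.9% in RNF138-/-, where this scaling moved the medians of all genes to -1.24 and -3.69. In libraries labelled RNF138-/- the log2 fold changes of Mmp9, Mmp10, Mmp13 and Mmp14 were then -2.56, -1.15, -1.81 and -1.04.

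**Figure D2:**
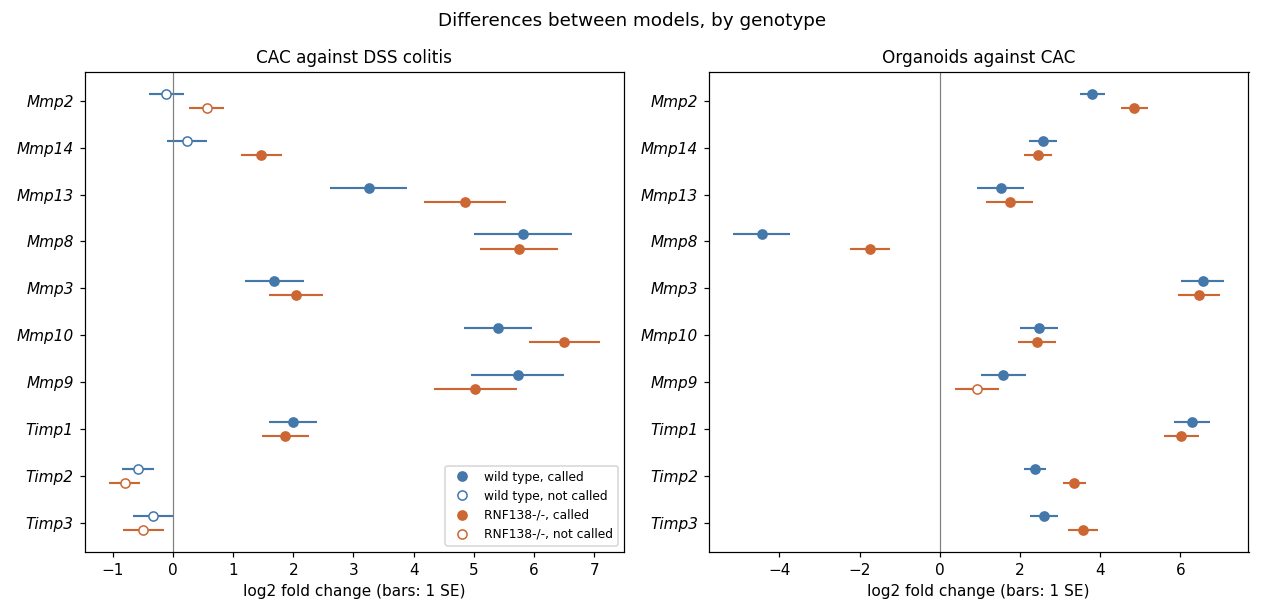
Log2 fold changes (points, with bars of 1 SE) of CAC against DSS colitis and of organoids against CAC in wild type (blue) and in libraries labelled RNF138-/- (orange); filled points passed both thresholds. Mmp3 and Timp1 lie above 6 in organoids in both genotypes, and Mmp8 is the gene below 0 there.

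The 3 genotype comparisons asked whether these genes differ without RNF138. In colitis 0 of 9 genes tested were called, against 0.0902% of 16623 genes in either direction. At an unadjusted p under 0.05 there were 2 of 9, Mmp3 and Mmp9, against 10.4% of all genes. DESeq2 also called 0 of these genes, against 343 of 16598 over all genes. Ranges of the genotypes did not overlap for Mmp3 and Mmp9, both higher in libraries labelled RNF138-/-, where 8.04% of all genes lay higher without overlap. Mmp8 was too low to be tested. An exact two-sided permutation test of 3 against 3 libraries cannot go below p = 0.1, which each pair of groups without overlap reaches.

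In CAC 0 of 10 genes were called by edgeR, against 5.37% of 17752 genes in either direction. Mmp3, Mmp8, Mmp10 and Mmp14 had an unadjusted p under 0.05, that is 4 of 10 against 33.8% of all genes, with log2 fold changes of 1.10 to 1.96. DESeq2 called these 4 genes higher, against 3.15% of all genes, and the fit on all 18 libraries called the same 4, against 3.76%. The median over the 10 genes was 0.99 on the log2 scale and that over all genes 0.01. Ranges lay higher without overlap for Mmp3 and Mmp14, against 22.8% of all genes. The CAC libraries also differed in marker transcripts of other cell types, and smooth muscle markers were lower in libraries labelled RNF138-/- for 6 of 6, with summed levels of 2547 to 8194 CPM in wild type and 113 to 239.96 CPM, and B and plasma cell markers were lower for 5 of 5. Fat markers were lower for 2 of 2 tested (median -6.97) and fibroblast markers for 1 of 8 (median -0.61). Intestinal epithelium markers were lower for 2 of 8, with a median of -1.10, and Krt20, a keratin of mature enterocytes, was at 451 to 2180 CPM in wild type and 49.6 to 233 CPM in RNF138-/-. All these marker calls were lost without RNF138-/- replicate 1 or 2, where 0 of all genes were called. Neutrophil markers had a median log2 fold change of 1.76 with 0 of 7 called, and summed to 55.3 to 229 CPM in wild type and 168 to 392 CPM in libraries labelled RNF138-/-, where Ly6g was at 5.09 to 126 CPM and 8.62 to 66.8 CPM and S100a8 at 15.4 to 36.7 CPM and 47.2 to 116 CPM. Elane alone had 3 counts or fewer in every CAC library. Their part in the MMP values was not tested.

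In organoids 6 of 10 genes were called higher in libraries labelled RNF138-/- and 0 lower, against 7.94% of 15294 genes called higher. They were Mmp8, Mmp13, Mmp3, Mmp10, Mmp2 and Timp2, with log2 fold changes of 1.03 to 4.68. Mmp14 had an adjusted p of 0.0104 by edgeR but fell just short of 2-fold, Timp3 missed the threshold on p, and Mmp9 and Timp1 were at 0.24 and 0.20. Mmp8 passed the filter on low counts through the RNF138-/- libraries. The median was 1.16 over the 10 genes and -0.04 over all genes. Ranges lay higher without overlap for 8 of 10, against 28.0% of all genes. Fibroblast markers moved with this result, as described after the single genes. Macrophage markers were also higher in RNF138-/- organoids, for 3 of 5 tested with a median of 1.49, and Adgre1, which encodes F4/80, was at 0 to 0.235 CPM in wild type and 2.22 to 3.79 CPM in RNF138-/-. Adgre1, C1qa, C1qb and Cd163 had 3 counts or fewer in every wild type organoid library. Those of them that were tested passed the filter on low counts through the RNF138-/- libraries. Smooth muscle markers were higher for 2 of 6, with a median of 1.17 and summed levels of 263 to 1349 CPM and 1579 to 1766 CPM. Intestinal epithelium markers were lower for 2 of 8 (median -0.35), against 7.04% of all genes called lower. Their summed levels were 7795 to 8736 CPM in wild type and 4586 to 6657 CPM in RNF138-/-. The part of these cells in the MMP values was not tested.

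**Figure D3:**
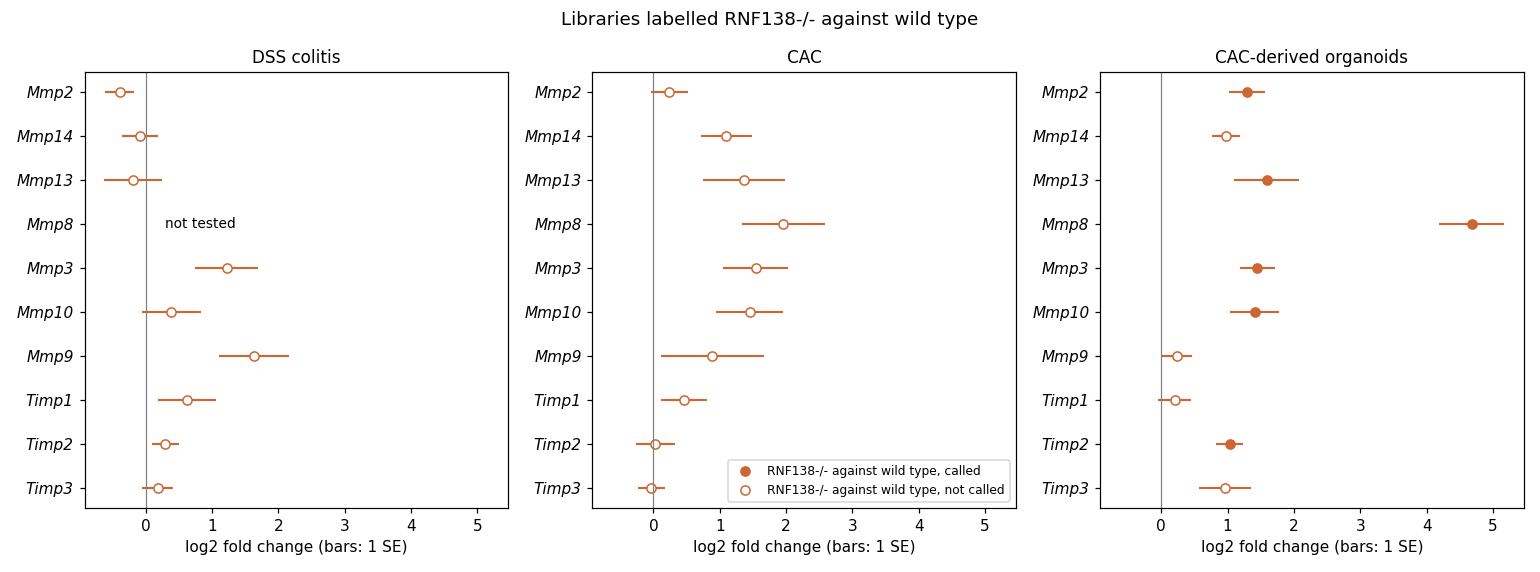
Log2 fold changes (points, with bars of 1 SE) between libraries labelled RNF138-/- and wild type libraries in colitis, CAC and organoids; filled points passed both thresholds. Only organoids hold filled points, 6 of them, and Mmp8 at 4.68 lies far above the others. Mmp8 passed the filter on low counts there through the RNF138-/- libraries.

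Mmp13, the main interstitial collagenase of the mouse, stood at 4.67, 2.16 and 5.71 CPM in wild type colitis and at 2.34, 3.39 and 4.94 CPM in colitis labelled RNF138-/-. CAC libraries had 19.5, 81.0 and 17.6 CPM in wild type and 144, 93.5 and 73.5 CPM in RNF138-/-. Every CAC library was above every colitis library, and wild type CAC replicate 2 lay within the RNF138-/- range while the other wild type libraries lay below it. The log2 fold change of CAC against colitis was 3.25 (SE 0.64, adjusted p = 0.00234 by edgeR) in wild type and 4.85 (SE 0.68, adjusted p = 3.84e-05) in RNF138-/-. Between genotypes in CAC it was 1.37 (SE 0.62, adjusted p = 0.172), and without wild type replicate 2 it became 2.44 with an adjusted p of 0.0486.

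Organoids had 175, 120.2 and 37.1 CPM of Mmp13 in wild type and 339, 462 and 233 CPM in libraries labelled RNF138-/-, without overlap. The log2 fold change was 1.59 (SE 0.49, adjusted p = 0.037 by edgeR). The call was lost without wild type replicate 2 or without any 1 of the RNF138-/- replicates, with adjusted p values of 0.0531 to 0.115, in the fit on all 18 libraries (1.63, adjusted p = 0.0645) and with the fibroblast scaling given below. Against CAC the organoid differences were 1.52 (adjusted p = 0.0325 by edgeR) in wild type, where the ranges overlapped, and 1.74 (adjusted p = 0.0169) in RNF138-/-. The wild type call was lost in 7 of 14 alternatives, among them without CAC replicate 1 (adjusted p = 0.126) or 3 (0.114) and without organoid replicate 1 (0.165) or 2 (0.0701). The RNF138-/- call was lost without CAC replicate 2 (adjusted p = 0.0545) or 3 (0.0665), without organoid replicate 2 (0.0617) and with total counts only (0.0947).

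Mmp8, the collagenase that neutrophils store in their granules, was barely detected in colitis, with 1, 0 and 1 counts in wild type and 1, 4 and 5 counts in libraries labelled RNF138-/-. CAC had 2.06, 2.54 and 3.24 CPM in wild type and 15.9, 12.6 and 2.91 CPM in RNF138-/-. CAC and colitis did not overlap, but RNF138-/- replicate 3 lay within the wild type CAC range. Between wild type CAC and colitis, 121 counts against 2 gave a depth-corrected ratio of 64.9 (95% exact interval 17.6 to 542, counting error only), and in RNF138-/- 676 against 10 gave 54.5 (29.4 to 114). Between genotypes in CAC the log2 fold change was 1.96 (SE 0.62, adjusted p = 0.0874 by edgeR), and 2.42 with an adjusted p of 0.0498 without RNF138-/- replicate 3.

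Wild type organoids held 5 counts of Mmp8 in all, at 0.0572, 0.0784 and 0.201 CPM, and organoids labelled RNF138-/- held 144 counts, at 3.90, 2.48 and 3.05 CPM. All RNF138-/- organoid libraries were thus above all wild type ones, although both groups were low in absolute terms. The ratio was 27.8 (95% exact interval 11.7 to 87.0, counting error only) and the fitted log2 fold change 4.68 (SE 0.49, adjusted p = 0.00112 by edgeR). Mmp8 entered this test through the RNF138-/- libraries, the group where it was high, since wild type libraries fell under the filter on low counts. Of 10 neutrophil markers, S100a9, Csf3r, Cxcr2, Ngp, Retnlg and Elane had 3 counts or fewer in every RNF138-/- organoid library. S100a8 was at 0.418 to 0.669 CPM, Camp at 0.279 to 0.595 CPM and Mpo at 0.223 to 0.557 CPM in these libraries, against 0.862 to 2.01, 0.314 to 1.14 and 0.572 to 1.00 CPM in wild type organoids, whereas Ly6g was at 45.7 to 76.0 CPM in RNF138-/- and at 43.1 to 80.3 CPM in wild type organoids. The summed level of the list was 47.4 to 83.1 CPM in wild type and 47.2 to 77.2 CPM in RNF138-/- organoids, 1 of 2 markers tested was called lower in RNF138-/- (median -0.65), and their part in the Mmp8 difference was not tested. The genotype difference was larger in organoids than in CAC by 2.71 on the log2 scale (SE 0.88, adjusted p = 0.0363 by edgeR), a call lost in 7 of 19 alternatives, the replicate block among them (2.97, adjusted p = 0.0593).

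Mmp2, a gelatinase made mainly by mesenchymal cells, overlapped between all tissue groups, at 89.3, 70.9 and 60.9 CPM in wild type and 58.4, 64.8 and 43.2 CPM in RNF138-/- colitis. In CAC it was 76.8, 80.4 and 45.9 CPM in wild type and 57.4, 83.6 and 104 CPM in RNF138-/-. No tissue group stood apart, and the CAC against colitis log2 fold changes were -0.11 (SE 0.29, adjusted p = 0.818 by edgeR) and 0.56 (SE 0.29, adjusted p = 0.111). Organoids had 1186, 559 and 1059 CPM in wild type and 2009, 2688 and 2371 CPM in RNF138-/-, above all tissue libraries and without overlap between genotypes. The organoid genotype difference was 1.29 on the log2 scale (SE 0.27, adjusted p = 0.00923 by edgeR).

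Mmp9, the gelatinase of neutrophils and macrophages, was at 0.399, 0.511 and 0.251 CPM in wild type colitis and at 0.719, 0.967 and 1.87 CPM in colitis labelled RNF138-/-. These ranges did not overlap, and the log2 fold change was 1.63 (SE 0.53, adjusted p = 0.339 by edgeR). Wild type CAC libraries spread widely, at 17.4, 41.8 and 3.24 CPM, and those labelled RNF138-/- held 34.7, 57.7 and 25.4 CPM. Even the lowest CAC library exceeded every colitis library, and the log2 fold changes of CAC against colitis were 5.73 (SE 0.77, adjusted p = 1.26e-04) and 5.02 (SE 0.69, adjusted p = 3.03e-05) by edgeR. Organoids had 87.7, 50.8 and 44.6 CPM in wild type and 65.1, 77.3 and 80.9 CPM in RNF138-/-, and the genotypes overlapped (log2 fold change 0.24, SE 0.23, adjusted p = 0.446 by edgeR). Without wild type organoid replicate 1 it was 0.60 with an adjusted p of 0.00841, under 2-fold. Against CAC the organoid difference was 1.58 (adjusted p = 0.0226 by edgeR) in wild type and 0.92 (adjusted p = 0.155) in RNF138-/-, and both differed by -0.65 (SE 0.77, adjusted p = 0.585). The wild type call was lost in 5 of 14 alternatives by edgeR, namely without wild type CAC replicate 1 (adjusted p = 0.0717), without wild type organoid replicate 1 (0.0987), with total counts only (0.0628), with only the groups compared (0.117) and with the fibroblast scaling (0.475).

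Mmp3, stromelysin-1, which cuts proteoglycans and activates other pro-MMPs, was at 1.25, 1.59 and 2.26 CPM in wild type colitis and at 6.71, 2.66 and 2.37 CPM in RNF138-/- colitis. CAC libraries had 2.56, 8.64 and 4.81 CPM in wild type and 23.4, 12.7 and 12.1 CPM in RNF138-/-. In both tissues all libraries labelled RNF138-/- lay above all wild type libraries, with log2 fold changes of 1.22 in colitis (SE 0.47, adjusted p = 0.425 by edgeR) and 1.54 in CAC (SE 0.49, adjusted p = 0.0886). CAC exceeded colitis by 1.68 on the log2 scale (SE 0.49, adjusted p = 0.0237 by edgeR) in wild type and by 2.04 (SE 0.45, adjusted p = 0.00138) in RNF138-/-. The wild type call was lost without colitis replicate 1, colitis replicate 2 or CAC replicate 2, with adjusted p values of 0.108, 0.0839 and 0.154, and with only the groups compared (0.0625).

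Organoid Mmp3 was far higher, at 508, 330.0 and 662 CPM in wild type and 1242, 1785 and 1186 CPM in libraries labelled RNF138-/-. Genotypes did not overlap, and the log2 fold change was 1.45 (SE 0.27, adjusted p = 0.006 by edgeR).

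Mmp10, stromelysin-2, an enzyme of migrating wound-edge epithelium, showed 1.25, 0.681 and 1.63 CPM in wild type colitis and 1.26, 2.24 and 1.11 CPM in RNF138-/- colitis, which overlapped. In CAC it reached 30.1, 76.8 and 42.0 CPM in wild type and 229, 115 and 72.3 CPM in RNF138-/-. The CAC against colitis log2 fold changes were 5.40 (SE 0.57, adjusted p = 1.59e-05 by edgeR) and 6.50 (SE 0.59, adjusted p = 1.38e-06). Within CAC only the highest wild type library overlapped the lowest RNF138-/- library, and the genotype difference was 1.45 (SE 0.51, adjusted p = 0.107 by edgeR).

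Wild type organoids had 409, 278 and 127 CPM of Mmp10 and organoids labelled RNF138-/- had 689, 895 and 647 CPM, without overlap. The log2 fold change was 1.41 (SE 0.37, adjusted p = 0.0202 by edgeR), and the adjusted p became 0.0626 without wild type replicate 2 and 0.0703 without RNF138-/- replicate 2.

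Mmp14 encodes a membrane-anchored enzyme that activates pro-MMP2 with the help of TIMP2. Its levels were 127, 131 and 98.6 CPM in wild type and 136, 127 and 67.6 CPM in RNF138-/- colitis, and 151, 197 and 68.1 CPM in wild type and 240.2, 393 and 277 CPM in RNF138-/- CAC. Only the CAC libraries labelled RNF138-/- stood clear of the other tissue libraries, all of which overlapped. The genotype difference in CAC was 1.10 on the log2 scale (SE 0.38, adjusted p = 0.105 by edgeR), and it exceeded that in colitis by 1.24 (SE 0.47, adjusted p = 0.0872). The latter was called with the replicate block (1.37, adjusted p = 0.0362 by edgeR), where 16.2% of all genes were called, and without wild type CAC replicate 2 (1.52, adjusted p = 0.0331). CAC against colitis gave 0.23 (SE 0.33, adjusted p = 0.655 by edgeR) in wild type and 1.47 (SE 0.34, adjusted p = 0.00176) in RNF138-/-.

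In organoids Mmp14 was at 1086, 664 and 665 CPM in wild type and at 1488, 1817 and 1617 CPM in libraries labelled RNF138-/-. The ranges did not overlap, and the log2 fold change was 0.98 (SE 0.21, adjusted p = 0.0104 by edgeR). Both thresholds were passed with RLE size factors (1.01), no filter on low counts (1.00), DESeq2 (1.01), the replicate block (1.02) and the fit on all 18 libraries (1.02), and without wild type replicate 1 (1.27), RNF138-/- replicate 1 (1.06) or RNF138-/- replicate 3 (1.00).

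Timp1, the inducible inhibitor, was at 2.05, 2.21 and 2.95 CPM in wild type and 5.93, 3.33 and 1.77 CPM in RNF138-/- colitis. CAC libraries held 10.0, 13.5 and 4.72 CPM in wild type and 12.8, 13.7 and 13.4 CPM in RNF138-/-. Genotypes overlapped in both models, and CAC exceeded colitis by 1.99 on the log2 scale (SE 0.40, adjusted p = 0.00262 by edgeR) and by 1.87 (SE 0.39, adjusted p = 8.27e-04). With 1046, 519 and 640.4 CPM in wild type and 810.1, 1003 and 787 CPM in RNF138-/-, organoids were far above tissue, and their genotypes overlapped (log2 fold change 0.20, SE 0.25, adjusted p = 0.561 by edgeR). Without wild type organoid replicate 1 it was 0.55 with an adjusted p of 0.0187, under 2-fold. Timp1 lies on the X chromosome, and the wild type organoids carried Xist whereas those labelled RNF138-/- did not.

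Timp2, which both inhibits MMPs and takes part in pro-MMP2 activation, was at 163, 142 and 156 CPM in wild type and at 236, 179 and 142 CPM in RNF138-/- colitis. In CAC it was at 94.9, 128 and 83.7 CPM and at 65.6, 118 and 137 CPM, respectively. All CAC libraries lay below all colitis libraries, with log2 fold changes of -0.58 (SE 0.26, adjusted p = 0.133 by edgeR) in wild type and -0.80 (SE 0.26, adjusted p = 0.0169) in RNF138-/-, the latter under 2-fold, though past it without colitis replicate 3 (-1.01) or CAC replicate 3 (-1.02). Organoids had 680.4, 412 and 473 CPM in wild type and 1028, 1232 and 1038 CPM in RNF138-/-, without overlap (log2 fold change 1.03, SE 0.20, adjusted p = 0.00662 by edgeR). The fold change fell under 2-fold without wild type replicate 2, wild type replicate 3 or RNF138-/- replicate 2, where it was 0.90, 0.96 and 0.95 on the log2 scale, and with total counts only, where it was 0.84.

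Timp3, which is bound to the matrix and also blocks ADAM and ADAMTS proteases, ranged in tissue from 39.8 CPM in a wild type CAC library to 93.3 CPM in a colitis library labelled RNF138-/-. Genotype differences were 0.18 (SE 0.23, adjusted p = 0.86 by edgeR) in colitis and -0.03 (SE 0.20, adjusted p = 0.925) in CAC. CAC against colitis gave -0.33 (SE 0.34, adjusted p = 0.526 by edgeR) in wild type and -0.49 (SE 0.34, adjusted p = 0.236) in RNF138-/-, where all CAC libraries lay below all colitis libraries. Wild type organoids had 575, 207 and 186 CPM and those labelled RNF138-/- had 581, 749 and 601 CPM. The highest wild type library came close to the lowest RNF138-/- library, and the log2 fold change was 0.96 (SE 0.39, adjusted p = 0.0908 by edgeR). Without wild type replicate 1 it was 1.68 with an adjusted p of 0.000145.

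The balance of enzymes and inhibitors was described by the summed RPKM of the 7 MMPs divided by that of the 3 TIMPs in each library. The ratio was 0.963, 0.998 and 0.733 in wild type colitis and 0.606, 0.773 and 0.573 in RNF138-/- colitis, with 2 wild type libraries close to equal sums. It was 1.88, 2.67 and 1.92 in wild type CAC and 7.01, 4.27 and 2.88 in CAC labelled RNF138-/-, so the MMP sum was the larger in all 6 and the genotypes did not overlap. Organoids had 0.804, 0.952 and 1.03 in wild type and 1.67, 1.83 and 1.73 in RNF138-/-, again without overlap. These ratios rest on approximate exon lengths, are of transcripts and leave out precursor activation, and no test was made of them.

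**Figure D4:**
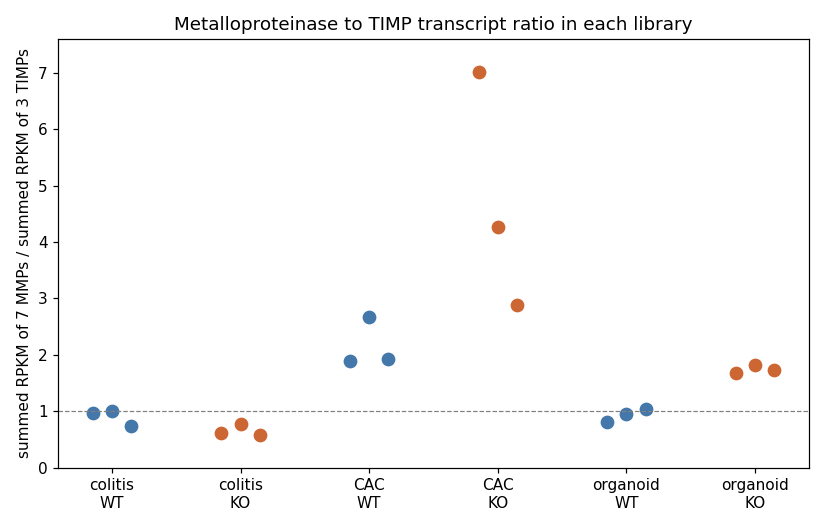
Summed RPKM of 7 MMPs over that of 3 TIMPs in each of 18 libraries (points), by model and genotype; the dashed line marks equal sums. All CAC libraries lie above the line, and those labelled RNF138-/- reach from 2.88 to 7.01.

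Fibroblast markers were considered for the organoids, since fibroblasts are a known source of several of these enzymes and inhibitors. Of 8 markers, 6 were called higher in organoids labelled RNF138-/- and 0 lower, with a median log2 fold change of 1.51. Their summed level was 1024 to 2364 CPM in wild type and 3970 to 5481 CPM in RNF138-/- organoids, and Pdgfra, a fibroblast receptor, was at 73.9 to 230.0 CPM and 455 to 651 CPM, while Dpt was lowest of the 8 at 4.86 to 19.1 CPM and 7.10 to 18.1 CPM. When library sizes were replaced by the summed counts of these markers, a scaling chosen after seeing the data, 3 genes were called. This scaling moved the median over all genes to -1.72, and 83.0% of the 15294 genes were called, nearly all of them lower. Mmp8 was still higher at 3.20 (SE 0.80, adjusted p = 0.000146 by edgeR), whereas Mmp9 and Timp1 were lower, at -1.33 (adjusted p = 0.00176) and -1.38 (adjusted p = 0.000479). The other 7 genes lay between -0.62 and 0.01 and were not called. Mmp2 for instance was 502 to 845 per 1000 CPM of markers in wild type and 490.4 to 528 in RNF138-/- organoids.

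**Figure D5:**
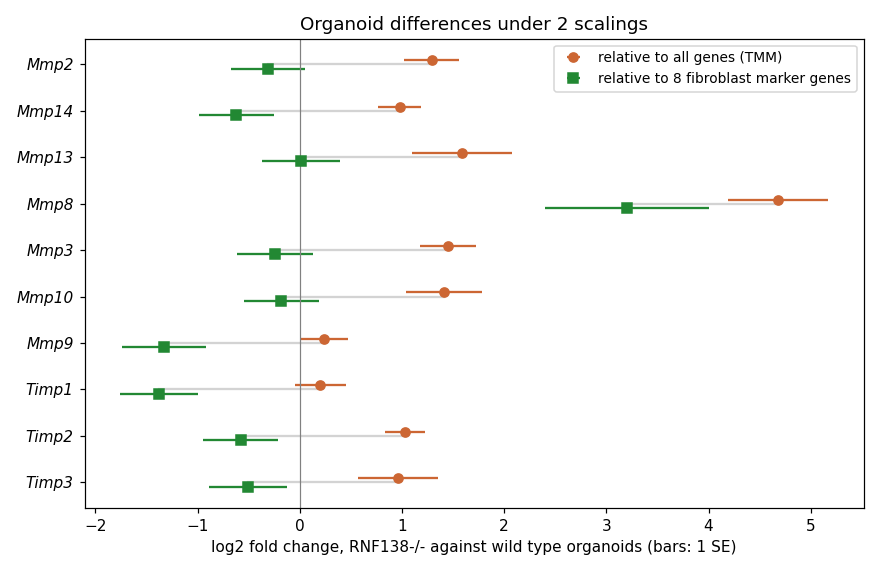
Organoid log2 fold changes (points, with bars of 1 SE) between libraries labelled RNF138-/- and wild type for the 10 genes, relative to all genes (circles) and relative to 8 fibroblast markers (squares). Mmp8, which passed the filter on low counts through the RNF138-/- libraries, stays above 3 under both scalings. The other 9 genes fall to 0.01 or below, where the median of all genes is -1.72.

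Related genes were counted by the same thresholds. Of 16 other MMPs, 0 of 11 tested were called in colitis, 2 were higher and 1 lower of 10 tested in CAC, and 5 were higher and 1 lower of 12 tested in organoids, each for RNF138-/- against wild type. Of all genes tested, 0.546% were called higher and 4.83% lower in CAC, and 7.94% higher and 7.04% lower in organoids. In CAC the higher ones were Mmp7, the epithelial matrilysin, at 2.94 (SE 0.61, adjusted p = 0.0449 by edgeR), and Mmp20, at 2.79 (adjusted p = 0.0409), while Mmp17 was lower at -2.88 (adjusted p = 0.0285). These calls were lost without RNF138-/- CAC replicate 1 or 2, where 0 of all genes were called. With the Y-linked covariate 0 of all genes were called higher. Mmp7 was at 123, 123 and 29.1 CPM in wild type and 685, 1044 and 405 CPM in RNF138-/- CAC, so that the genotypes did not overlap. In organoids Mmp16, a membrane-anchored enzyme, was at 3.89 (SE 0.87, adjusted p = 0.0117 by edgeR), with 6, 0 and 0 counts in wild type and 23, 64 and 16 counts in RNF138-/-. Like Mmp8, Mmp16 passed the filter on low counts through the RNF138-/- libraries, where it was high. Mmp12, the macrophage elastase, was higher at 2.79 (SE 0.47, adjusted p = 0.0045 by edgeR) beside the macrophage markers given above, Mmp11 at 1.77 (SE 0.18, adjusted p = 0.00107) and Mmp19 at 1.74 (SE 0.23, adjusted p = 0.0021). In CAC against colitis Mmp7, which like Mmp20 and Mmp12 lies in the chromosome 9 cluster, was at 7.52 in wild type and 8.18 in RNF138-/- on the log2 scale.

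Activators and other inhibitors, a list of 13 genes, had 0 called in colitis or CAC between genotypes and 4 higher and 1 lower of 12 in organoids, against the 7.94% and 7.04% of all genes, where Serpine2, a protease inhibitor, was at 1.74 (SE 0.17, adjusted p = 9.66e-04 by edgeR) and Reck, a membrane inhibitor of MMPs, at 1.49 (SE 0.31, adjusted p = 0.00926). In CAC against colitis Lcn2, whose product binds MMP9, was at 3.85 in wild type and 5.25 in RNF138-/-. Among 12 ADAM and ADAMTS proteases that TIMP3 can bind, 5 of 11 tested were higher in organoids labelled RNF138-/- (7.94% of all genes), and 1 of 12, Adamts8, was lower in CAC (4.83% of all genes) at -3.77 (SE 0.40, adjusted p = 0.0193 by edgeR). The Adamts8 call was lost without RNF138-/- CAC replicate 1 or 2, where 0 of all genes were called.

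Matrix substrates of the enzymes were counted last together with inducers. Of 15 substrate genes, 0 were called between genotypes in colitis and 0 in CAC, whereas 14 were higher in organoids labelled RNF138-/-, against 7.94% of all genes, and the median over the list was 1.77 on the log2 scale. The fibroblast markers described above moved with these genes, 6 of 8 being higher with a median of 1.51, and their part was not tested. Vcan, a large proteoglycan, was at 2.28 (SE 0.25, adjusted p = 0.00131 by edgeR) and Col3a1, a fibrillar collagen, at 2.12 (SE 0.38, adjusted p = 0.00542). Of 12 inducers of MMP transcription, Il1b alone was called in CAC, where 0.546% of all genes were higher, at 2.05 (SE 0.36, adjusted p = 0.0343 by edgeR), with 10.4 ± 2.26 CPM (SD, n = 3) in wild type and 26.9, 41.8 and 64.1 CPM in RNF138-/- libraries. The Il1b call was lost without RNF138-/- CAC replicate 1 or 2, where 0 of all genes were called, and with the Y-linked covariate, where 0 were higher. In organoids Osm, Il1b and Il1a were higher and 0 lower of 12, against 7.94% of all genes higher, and Il1b stood at 0.470 CPM or less in wild type and at 1.41 to 2.06 CPM in RNF138-/-. Il1b thus passed the filter on low counts through the RNF138-/- libraries, where it was high.

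The genotype difference itself was compared between models. Between CAC and colitis 0 of 10 genes were called, against 14.1% of 19390 genes. At an unadjusted p under 0.05 there was 1, Mmp14, against 5843 of 19390 genes. DESeq2 called 0 of the 10, against 3665 of 19375 genes. Between organoids and CAC 1 of 10 was called, Mmp8, against 23.3%, and Mmp2 and Timp2 had differences of 1.04 (SE 0.41, adjusted p = 0.0769 by edgeR) and 0.99 (SE 0.37, adjusted p = 0.0632). The count was 2 with RLE size factors (23.1% of all genes), 0 with total counts only (31.6%), 3 with DESeq2 (27.8%) and 0 with the replicate block (25.0%). For Mmp3, Mmp10 and Mmp13 the differences were -0.10 (SE 0.59), -0.05 (SE 0.63) and 0.22 (SE 0.80), which leaves room for sizeable differences either way.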

How the data were processed

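RNA-seq libraries (18, 3 per model and genotype) were prepared with a TruSeq kit. Per the paper's methods, the authors mapped 150-bp paired-end reads to mm10 and used Cufflinks with Gencode v.M8, while the submitters' processing notes name STAR 2.6.1d, HTSeq 0.11.2 and DESeq2. The strand setting is not given in the sources used here. The deposited table holds raw read counts per gene, and a deposited table of the authors' own comparisons (log2 fold changes and p-values per model) was not used. Libraries were grouped by the labelled model and genotype. Counts were tested with edgeR 4.0.16 (TMM, filterByExpr, quasi-likelihood, Benjamini-Hochberg over all genes tested) on the 6 libraries of a model for genotype, and on all 18 libraries with 6 group means for models and interactions; a gene was called at an adjusted p under 0.05 and at least 2-fold, and for interactions at the adjusted p alone. SE is the log2 fold change divided by the square root of the F statistic. CPM used TMM factors over 18 libraries, and RPKM used union exon lengths of GENCODE M21, a later release than the authors', so lengths are approximate. A shallower library gives low genes fewer counts, and intervals on counts cover counting error only. Scripts were tested on simulated data, and DESeq2 1.42.0 and limma 3.58.1 were run under R 4.3.3 with Python 3.11.15. Alternatives were other scalings, filters, tests, fits, a Y-linked covariate, a replicate block and leaving out each library. Replicate pairs of a group differed by more than sampling noise. The 10 genes, the related lists and the markers were chosen with earlier results of these data known. All 10 genes were named, and of each related list at most the 4 with the largest changes among those called.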

Additional observations from a re-analysis of the deposited data

Results flagged for a closer look

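Mmp8 was singled out because its genotype difference was tested to be larger in organoids than in CAC, by 2.71 on the log2 scale (SE 0.88, adjusted p = 0.0363 by edgeR). In CAC the libraries labelled RNF138-/- held 15.9, 12.6 and 2.91 CPM against 2.06, 2.54 and 3.24 CPM in wild type, and in organoids 3.90, 2.48 and 3.05 CPM against 0.0572, 0.0784 and 0.201 CPM, so the RNF138-/- value was higher in 3 of 3 organoid libraries and in 2 of 3 CAC libraries than every wild type value. The wild type organoid group rests on 5 counts. Over 19 alternatives the adjusted p ranged from 0.0216 to 0.0912, and it was above the threshold in 7 of them, namely with total counts only, with the replicate block, without wild type CAC replicate 3, without wild type organoid replicates 1 or 2, and without RNF138-/- organoid replicates 1 or 3. Sex and genotype cannot be told apart in the organoids.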

How the results depend on the processing

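Counts of the 10 genes called changed as follows. In CAC between genotypes 4 were called with DESeq2 and 4 in the fit on all 18 libraries, and 0 to 1 when each replicate was left out. In organoids 3 were called when scaled to fibroblast markers, an alternative added after seeing the data, and 3 to 8 without each replicate. The lowest count of 3 came without wild type replicate 2 and without RNF138-/- replicate 2. Over all genes, leaving out each replicate gave 0 to 1136 calls in CAC and 1515 to 3130 in organoids. For the genotype difference of CAC against colitis 1 gene, Mmp14, was called with the replicate block (16.2% of all genes) and 0 to 2 without each replicate. For that of organoids against CAC 2 were called with RLE size factors, 0 with total counts only, 3 with DESeq2, 0 with the replicate block and 0 to 3 without each replicate, where 23.1%, 31.6%, 27.8% and 25.0% of all genes were called under the first 4 of these. Over all genes, leaving out each replicate gave 1537 to 3448 calls for the first of these genotype differences and 3167 to 4723 for the second. The other counts among the 10 genes stayed within 1.5 times the reported ones. Same-numbered libraries share only a number (correlations of deviations of 0.0419 to 0.342 in colitis, 0.0356 to 0.17 in CAC and -0.0946 to 0.0267 in organoids), and with the replicate block 0, 0 and 7 genes were called between genotypes in colitis, CAC and organoids. Over all genes the block called 89 of 16623, 1079 of 17752 and 2071 of 15294.

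Some values changed sign, under settings other than the fibroblast scaling only for genes not called. In colitis, leaving out replicates gave -0.54 to 0.09 for Mmp13, -0.26 to 0.15 for Mmp14 and -0.03 to 0.30 for Timp3. In CAC Timp2 was -0.02 with the replicate block and -0.02 with the Y-linked covariate, and -0.18 to 0.28 without each replicate, whereas Timp3 was 0.21 with total counts only, 0.0025 with no filter, 0.02 in the fit on 18 libraries and -0.17 to 0.13 without each replicate. For wild type CAC against colitis Mmp2 was 0.05 with the Y-linked covariate and -0.27 to 0.09 without each replicate, and Mmp14 was -0.12 to 0.55. Scaled to fibroblast markers, organoid genotype differences were -0.31 for Mmp2, -0.24 for Mmp3, -1.33 for Mmp9, -0.18 for Mmp10, -0.62 for Mmp14, -1.38 for Timp1, -0.58 for Timp2 and -0.51 for Timp3, and RNF138-/- organoids against CAC gave -2.56 for Mmp9, -1.15 for Mmp10, -1.81 for Mmp13, -1.04 for Mmp14 and -0.09 for Timp2, among them genes called higher in the reported fit. The causes were not tested.

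Over all genes, the colitis genotype count went from 15 to 29 with total counts only, 354 with no filter, 343 with DESeq2, 89 with the replicate block and 188 with the Y-linked covariate, and that of CAC from 954 to 1641 with no filter, 2463 with DESeq2, 32 with the Y-linked covariate and 2834 in the fit on 18 libraries. Leaving out 1 library gave 0 to 147 in colitis and as few as 0 in CAC, without RNF138-/- replicate 1 and without replicate 2. The organoid count of 2292 was 5436 without a fold change minimum, 12687 when scaled to fibroblast markers and 1515 without RNF138-/- replicate 2. With only the groups compared it went from 2636 to 1689 for wild type CAC against colitis and from 2733 to 1633 for the genotype difference of CAC against colitis, and for RNF138-/- organoids against CAC from 8604 to 18019 when scaled to fibroblast markers. Total counts only moved the median of all genes from 0.01 to 0.27 in CAC and from -0.04 to -0.24 in organoids, and the share of higher calls in organoids from 53% to 36.1%; of the differences between models it moved that share from 47.1% to 62% for CAC against colitis and from 40.3% to 21.1% for organoids against CAC, both RNF138-/-, and that of the genotype differences from 29.9% to 44.1% and from 56.1% to 27.2%. The Y-linked covariate was not run where wild type organoids enter, since it cannot be told apart from the groups. Depth limits Mmp8, with at most 5 counts per colitis library.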
